A study of Rattus norvegicus with 24 samples.

Results

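The miRNAs described here are rno-miR-191a-5p and rno-miR-425-5p, the main arms of neighbouring hairpins on rat chromosome 8. They were taken by name, 2 of the 753 mature miRNA names in the tables and 2 of the 136 that passed a low-count filter. They were chosen by their fish oil differences in these same libraries, so their differences between diets are given as a description, with no test. The ozone differences on each diet, the ratio of both miRNAs in ozone against air, and their variation between rats of 1 group were tested. They are not the values the members were chosen on. The ozone differences and the ratio use the same group levels as the diet differences, so those tests are not fully independent of the choice.

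Serum small RNA was read from male Wistar Kyoto rats, with 1 library per rat. From 4 weeks of age the rats ate either the normal facility chow or a diet enriched with 6% fish oil by weight, for 8 weeks. They then breathed filtered air or ozone (0.8 ppm nominal, 0.8045 ppm measured) for 4 h on each of 2 days. The groups were normal air (n = 6), normal ozone (n = 6), fish oil air (n = 6) and fish oil ozone (n = 5, since replicate 2 was not analysed here). The fish oil diet is compared with chow and not with another oil, so fish oil cannot be told apart from other differences between the feeds. Rats shared cages in pairs, and the labels used here do not name the cage.

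MiRNAs are short RNAs that guide Argonaute proteins to messenger RNAs, mainly through the seed, the bases near the 5′ end. Each is cut from a hairpin with a 5′ and a 3′ arm, and usually 1 arm is kept. MiR-191 and miR-425 are made from 1 primary transcript. MiR-191-5p is abundant in blood cells and is often used as a reference miRNA in PCR studies of serum, while miR-425-5p is usually scarcer.

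The mature sequences are shown because the seeds decide whether both miRNAs could be read as 1 family. They come from RefSeq (build GRCr8), run 5′ to 3′, and have the seed (bases 2 to 8) in capitals. The first 2 are the members, the next 2 are the opposite arms of their hairpins, and miR-191b lies on the other strand.
miR-191a-5p: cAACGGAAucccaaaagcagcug
miR-425-5p: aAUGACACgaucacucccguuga
miR-191a-3p: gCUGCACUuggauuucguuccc
miR-425-3p: aUCGGGAAuaucguguccgcc
miR-191b: gAACGAAAuccaagugcagcu

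The members have unrelated seeds and share a base at 5 of 23 positions when aligned from the 5′ end. No other rat mature miRNA in the RefSeq table carries either seed. The seed of miR-191a-3p also occurs in miR-17-2-3p. The reverse complement of miR-191b overlaps miR-191a-3p over 20 of its 21 bases.

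The hairpins, also from RefSeq (GRCr8), show how the arms lie, with both mature arms in capitals.
Mir191: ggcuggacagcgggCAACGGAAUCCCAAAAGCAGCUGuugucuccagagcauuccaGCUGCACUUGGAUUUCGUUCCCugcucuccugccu
Mir425: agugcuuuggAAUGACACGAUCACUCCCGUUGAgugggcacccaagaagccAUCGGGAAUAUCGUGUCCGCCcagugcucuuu

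In the deposited files, on rn5, miR-191a-5p runs from 116698881 to 116698904 on chromosome 8 and miR-425-5p from 116699334 to 116699357. MiR-191a-3p (116698923 to 116698945), miR-191b (116698922 to 116698943) and miR-425-3p (116699375 to 116699396) are the only other miRNA names in the files within 10 kb. The files do not say whether positions count from 0 or 1, and each stop minus start equals the mature length. In the GRCr8 gene table both members lie within the span of Dalrd3, which has Ndufaf3 and Wdr6 beside it; whether that is intron or exon was not read here.

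MiRNA counts per library summed to between 23276 and 94264. The normal diet libraries held 33739 to 94264 and the fish oil libraries 23276 to 53694. The floor used for detection, 3 counts in a library, equals 31.8 to 129 CPM (counts per 1e6 miRNA counts). Both members were far above it in all 23 libraries, with 985 to 21762 counts of miR-191a-5p and 32 to 285 of miR-425-5p. Levels below are CPM with library sizes scaled by edgeR's trimmed mean method (TMM), unless RPM, the authors' reads per 1e6 reads of a larger total, is named. Summed levels of miRNA lists are CPM without TMM scaling.

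MiR-191a-5p was the most abundant serum miRNA in all 12 rats on the normal diet and in 1 of 11 on fish oil. On the normal diet in air its level ran from 176380 through a median of 253106 to 345013 CPM, and in ozone from 194324 through 231169 to 346465 CPM. In fish oil air it ran from 45685 through 101594 to 151203 CPM. In fish oil ozone the 5 rats had 56082, 32383, 102640, 48658 and 116466 CPM (replicates 1, 3, 4, 5 and 6). These ranges did not overlap between diets. The share of all tested miRNAs that separate in this way is not given here. MiR-191a-5p was chosen on this difference, so nothing is read from the gap.

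Group means were 252377 ± 64181 CPM (normal air, SD, n = 6), 243343 ± 55962 (normal ozone, n = 6), 101845 ± 37170 (fish oil air, n = 6) and 71246 ± 36335 (fish oil ozone, n = 5). The order of the groups was therefore normal air, normal ozone, fish oil air, fish oil ozone, and the neighbours within each diet differed by less than 1 SD. The fitted log2 difference of fish oil from normal was −1.31 (SE 0.30) in air, −1.77 (SE 0.32) in ozone and −1.54 (SE 0.22) averaged over exposures. The averaged value is a level 2.91-fold lower. Among all 136 tested miRNAs it was the second most negative in each of these 3 comparisons. This rank is a description only, because the members were chosen on these differences.

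As a share of all miRNA counts, miR-191a-5p took 23.3 ± 4.39% in normal air, 23.9 ± 4.12% in normal ozone, 11.05 ± 3.77% in fish oil air and 7.43 ± 4.67% in fish oil ozone (SD). In 10 of the 11 fish oil libraries miR-143-3p, known from smooth muscle, had more counts. MiR-192-5p of the liver and gut and miR-22-3p outnumbered it in 3 libraries each. The lowest place was seventh, in fish oil ozone replicate 3, and fish oil ozone replicate 5 and fish oil air replicate 4 also stood low, at 3.79% and 4.28% of counts.

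Both the total of miRNA counts and the share of miR-191a-5p were lower on fish oil. MiR-191a-5p therefore had to make up a larger part of the gap in totals than of the normal diet counts. The mean total was 64498 ± 17242 counts over 12 normal diet libraries and 35462 ± 9503 over 11 fish oil libraries (SD), a difference of 29036 counts. MiR-191a-5p accounted for 11869 of those, 40.9% of the gap, against a mean share of 23.6% of normal diet counts, and miR-425-5p made up 135, or 0.465%. In RPM miR-191a-5p made up 37.4% of the gap between the mean totals. By geometric means the fish oil total was 0.551 times the normal total with both members and 0.655 times without them.

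**Figure D1:**
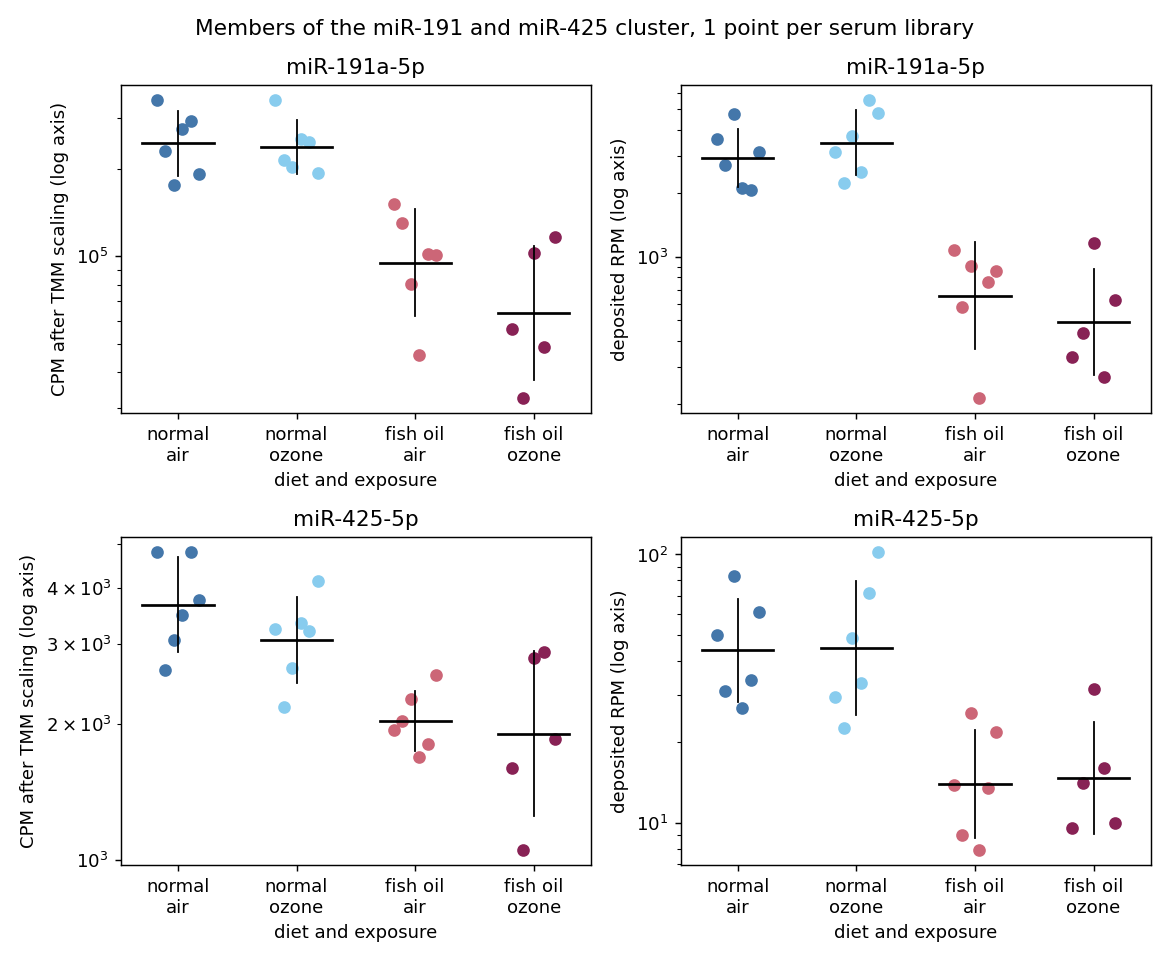
Level of miR-191a-5p (top) and miR-425-5p (bottom) in each of 23 serum libraries, by diet and exposure, as CPM after TMM scaling (left) and as the authors' RPM (right), all on log axes; black lines are geometric means and whiskers 1 SD on the log2 scale. For miR-191a-5p all 11 fish oil points lie under all 12 normal diet points on either scale, while miR-425-5p overlaps between diets in ozone. Both members were chosen on their difference between diets, so the separation is a description only. The share of all tested miRNAs that separate in this way is not given.

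MiR-425-5p was also lower on fish oil, by less than miR-191a-5p and with overlap in ozone. On the normal diet in air it ran from 2630 through a median of 3610 to 4801 CPM, and in ozone from 2177 through 3228 to 4138 CPM. In fish oil air it ran from 1689 through 1985 to 2566 CPM. The fish oil ozone rats had 1601, 1052, 2791, 2878 and 1852 CPM (replicates 1, 3, 4, 5 and 6). The ranges of the diets did not overlap in air and did in ozone. This is again a description only, with no share over all tested miRNAs beside it.

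Group means of miR-425-5p were 3754 ± 895 CPM (normal air, SD, n = 6), 3128 ± 665 (normal ozone, n = 6), 2050 ± 321 (fish oil air, n = 6) and 2035 ± 786 (fish oil ozone, n = 5). Neighbouring groups of 1 diet again differed by less than 1 SD. The fitted log2 difference of fish oil from normal was −0.87 (SE 0.24) in air, −0.62 (SE 0.25) in ozone and −0.74 (SE 0.17) averaged, the last a level 1.67-fold lower. From the most negative, miR-425-5p was 10th of 136 in air, 23rd in ozone and 18th averaged. It ranked 33rd to 51st by count in the normal diet libraries and 43rd to 75th in the fish oil libraries.

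These differences stood among many others. Averaged over exposures, edgeR called 23 of 136 miRNAs lower on fish oil (16.9%) and 27 higher (19.9%). In air it called 7 lower (5.15%) and 1 higher (0.735%), and in ozone 14 lower (10.3%) and 17 higher (12.5%). The members were chosen on these contrasts, so nothing is read from their ranks or from their place among the calls.

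Both members were lower on fish oil under each scaling tried, and the size depended on the denominator. Relative to the read total implied by the RPM table, which includes reads that are not miRNA, the averaged log2 difference was −2.38 (SE 0.30) for miR-191a-5p and −1.65 (SE 0.33) for miR-425-5p. On that scale the median of all 136 miRNAs was −0.87, against 0.061 after TMM, and the calls averaged over exposures were 1 higher and 70 lower. Relative to the median of all tested miRNAs the members stood at −1.60 and −0.81 after TMM, and at −1.52 and −0.78 on the implied total. In RPM miR-191a-5p ran from 2082 to 5540 on the normal diet and from 213 to 1162 on fish oil. MiR-425-5p ran from 22.6 to 102 RPM on the normal diet and from 7.89 to 31.6 on fish oil, with overlap.

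The split between higher and lower calls also moved with other scalings. Averaged over exposures it was 29 higher and 13 lower with total count scaling, and 17 and 30 with library sizes that left out both members. In air, where TMM gave 1 and 7, DESeq2 gave 7 and 8, total count scaling 11 and 3, and library sizes without the 5 most abundant miRNAs 9 and 6. In ozone, where TMM gave 17 and 14, library sizes without both members gave 6 and 18 and the implied total 0 and 46.

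**Figure D2:**
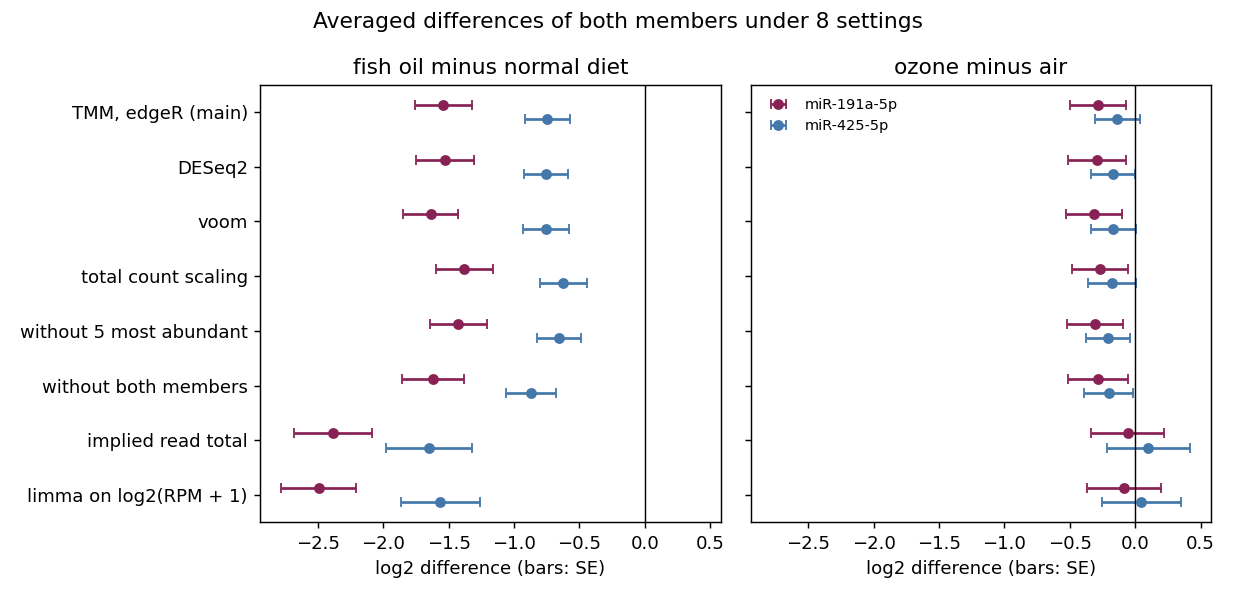
Fitted log2 differences of miR-191a-5p (red) and miR-425-5p (blue) for fish oil minus normal diet, averaged over exposures (left), and ozone minus air, averaged over diets (right), under 8 combinations of test and scaling; bars are SE. Left, both members stay below 0 throughout and lie further from it on the implied read total and on RPM. Right, miR-191a-5p stays below 0, from −0.31 with voom to −0.058 on the implied read total. MiR-425-5p changes sign on the implied read total and on RPM. No ozone value shown passed the threshold.

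Ozone gave no detectable change of either member. On the normal diet, the log2 difference of ozone from air was −0.053 for miR-191a-5p (SE 0.29, 95% interval −0.65 to 0.55, edgeR adjusted p = 0.970) and −0.26 for miR-425-5p (SE 0.23, interval −0.73 to 0.21, adjusted p = 0.939). On fish oil, it was −0.52 for miR-191a-5p (SE 0.31, interval −1.15 to 0.12, edgeR adjusted p = 0.667) and −0.012 for miR-425-5p (SE 0.25, interval −0.52 to 0.50, adjusted p = 0.983). These intervals still allow miR-191a-5p in ozone to be as low as 0.451 times its air level on fish oil, and miR-425-5p 0.695 times.

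The interaction, the ozone difference on fish oil minus that on the normal diet, was −0.46 (SE 0.43) for miR-191a-5p and 0.25 (SE 0.34) for miR-425-5p. It equals the fish oil difference in ozone minus that in air, which are values the members were chosen on, so it is given with no test. Averaged over diets the ozone difference was −0.28 (SE 0.21, edgeR adjusted p = 0.794) and −0.14 (SE 0.17, adjusted p = 0.915) in the same order. The small values near 0 changed sign under some scalings, without passing the threshold.

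Few miRNAs of any kind passed the ozone tests. By edgeR 0 of 136 (0%) passed on the normal diet, on fish oil and in the interaction, against 4, 10 and 6 at an unadjusted p under 0.05. DESeq2 called 1, 0 and 0 of them. Averaged over diets 1 of 136 passed (0.735%), miR-375-3p, a miRNA of endocrine cells, which was higher in ozone by 0.90 (log2, SE 0.23, edgeR adjusted p = 0.0462) and is named after its value was seen. No miRNA passed that comparison with voom or with total count scaling.

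The ratio of both miRNAs inside a library does not depend on scaling, and it did not differ detectably with ozone. MiR-191a-5p outnumbered miR-425-5p by a geometric mean of 66.9 to 1 in normal air (51.5 to 87.6), 77.5 in normal ozone (47.0 to 107), 46.6 in fish oil air (27.05 to 77.9) and 33.2 in fish oil ozone (16.9 to 62.9). The ranges of all 4 groups overlapped. Lowest was fish oil ozone replicate 5, where miR-425-5p was the highest of its group and miR-191a-5p the second lowest.

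With ozone the log2 ratio differed by 0.21 on the normal diet (two-sided exact permutation p = 0.325, adjusted over both diets 0.325) and by −0.49 on fish oil (exact p = 0.242, adjusted 0.325). Described only, the log2 ratio of fish oil minus normal was −0.52 in air, −1.22 in ozone and −0.87 averaged, so miR-191a-5p was lower on fish oil by more than miR-425-5p.

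**Figure D3:**
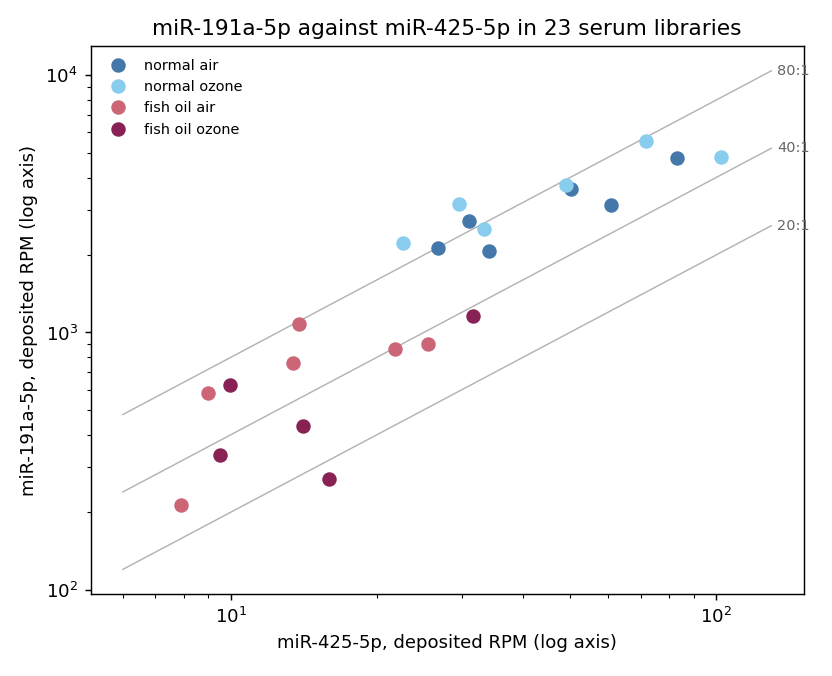
MiR-191a-5p (vertical) against miR-425-5p (horizontal) in deposited RPM, on log axes, with 1 point per library coloured by group; grey lines mark constant ratios. Normal diet libraries lie at the upper right, at 2082 RPM of miR-191a-5p or more, and fish oil libraries at the lower left, at 1162 RPM or less, with a wider spread of ratios.

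Between rats of 1 group the members varied together weakly on the TMM scale. After group means were removed, Pearson's r of log2 CPM was 0.434 over 23 libraries (permutation within groups, p = 0.101, adjusted over 6 correlations 0.152) and Spearman's rho was 0.324 (p = 0.195, adjusted 0.242). Without the 2 libraries farthest from the median of miR-191a-5p, fish oil air replicate 4 and fish oil ozone replicate 3, r was 0.190. Within the normal diet r was 0.431 (n = 12, permutation p = 0.188, adjusted 0.225) and within fish oil 0.448 (n = 11, p = 0.256, adjusted 0.256), where it was −0.148 without 2 libraries. Leaving out single libraries moved r over all groups between 0.230 and 0.565, and the unadjusted permutation p was 0.022 without fish oil ozone replicate 5 and 0.0468 without fish oil ozone replicate 6. The correlation on this scale did not pass the threshold with all libraries, and it moved either way with single ones.

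On the implied read total the same correlation was larger, with r = 0.739 (permutation p = 0.00011, adjusted 0.00066) and rho = 0.764 (p = 7e-05, adjusted 0.00042), and r = 0.687 without 2 libraries. It was 0.907 within the normal diet (n = 12, permutation p = 0.0004, adjusted 0.0012) and 0.680 within fish oil (n = 11, p = 0.0299, adjusted 0.0598). On this scale all miRNAs of a library share 1 denominator, and the median r with the other 135 tested miRNAs was 0.479 for miR-191a-5p and 0.649 for miR-425-5p, against −0.041 and 0.055 after TMM.

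Among the 135 other tested miRNAs, some had a higher r with each member than its neighbour on the transcript did. Over 23 libraries, after TMM and with group means removed, the highest r with miR-191a-5p were 0.80 for miR-92a-3p, of the miR-17-92 cluster, 0.78 for miR-328a-3p, 0.73 for miR-128-3p, 0.72 for miR-130b-3p and 0.71 for miR-146b-5p. MiR-425-5p came 25th of 135, 34th by Spearman's rho and 12th on the implied total. The highest with miR-425-5p were 0.78 for miR-361-5p, 0.64 for miR-25-3p, 0.62 for miR-363-3p, 0.60 for miR-185-5p and 0.52 for miR-181c-5p, and miR-191a-5p came sixth, 16th by Spearman's rho and 36th on the implied total. With Spearman's rho 3 of 5 names were shared for each member, and on the implied total 3 and 2 of 5. These are descriptions over libraries that share depth and scaling. The highest of 135 values are set beside 1 pair, and no difference between correlations was tested. Counts of 32 to 285 also limit the precision of any r with miR-425-5p.

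The opposite arms were scarce in serum. MiR-191a-3p summed to 60 counts over 12 normal diet libraries and 17 over 11 fish oil libraries, and it was 0 in 6 libraries. MiR-425-3p summed to 54 and 28 counts, and was 0 in 2. The floor of 3 counts was reached by miR-191a-3p in 11 of 23 libraries and by miR-425-3p in 14. The antisense name miR-191b held 5 counts in 2 normal diet libraries and 0 in the 11 fish oil libraries. None of these passed the low-count filter.

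The 3′ arm was rarer for miR-191a than for miR-425. It made up 0.0352% of both arms of mir-191a (77 of 77 plus 218896 counts, exact Clopper-Pearson 95% interval 0.0278 to 0.0439%) and 2.36% of both arms of mir-425 (82 of 82 plus 3392, interval 1.88 to 2.92%). By diet these shares were 0.0329% on normal and 0.0465% on fish oil for mir-191a (intervals 0.0251 to 0.0423% and 0.0271 to 0.0744%), and 2.08% and 3.20% for mir-425 (1.56 to 2.70% and 2.14 to 4.59%). The intervals of both diets overlap, and they cover counting error only, since PCR reads without molecular identifiers are not independent molecules. Reads of miR-191a-3p and miR-191b were divided between both names in normal air replicate 5 (0.238 and 1.76) and normal ozone replicate 1 (8.21 and 2.79), so values of this antisense pair are uncertain.

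MiR-191-5p is itself used as a serum reference, so the other usual reference miRNAs were read beside it. Of 10 listed, 9 were tested and 0 passed the edgeR test for fish oil averaged over exposures, with 2 at an unadjusted p under 0.05. DESeq2 called 2 of them, voom 0, and limma on RPM, where most miRNAs were lower, 7. Over all 136 tested miRNAs edgeR called 50, DESeq2 59, voom 49 and limma on RPM 71. MiR-484 was filtered out with a mean of 5.17 counts. Their median log2 difference was −0.085, against 0.061 over all 136. The values ran from −0.69 (SE 0.31, edgeR adjusted p = 0.0751) for miR-423-5p to 0.58 (SE 0.36, adjusted p = 0.208) for miR-451-5p, and miR-16-5p, a common choice, stood at 0.063 (SE 0.15). MiR-423-3p, from the same hairpin as miR-423-5p, was at −0.55 (SE 0.24, adjusted p = 0.0677). On the implied total the list's median was −1.01, near the −0.87 of all miRNAs.

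**Figure D4:**
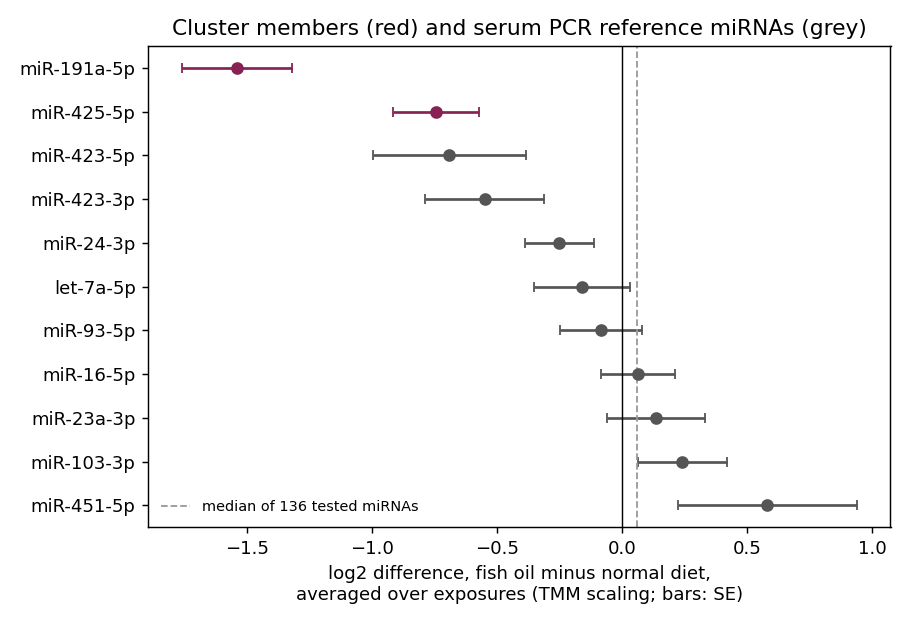
Log2 difference of fish oil minus normal diet, averaged over exposures, for both members (red) and the 9 tested serum reference miRNAs (grey), after TMM scaling; bars are SE and the dashed line is the median of 136 tested miRNAs. MiR-191a-5p, at −1.54, lies beyond the reference miRNAs, while miR-425-5p, at −0.74, lies beside miR-423-5p at −0.69. Both members were chosen on this difference, so their places are a description only.

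Lists of blood cell miRNAs were read against the 19.9% of all tested miRNAs called higher and 16.9% called lower on fish oil averaged over exposures. Of 13 tested platelet miRNAs 3 were higher averaged over exposures, miR-199a-3p (1.20), miR-126a-3p (1.06) and miR-221-3p (0.45), and 3 were lower, miR-223-3p (−0.80), miR-185-5p (−0.80) and miR-26a-5p (−0.37), all log2 and past the edgeR threshold, which is near that share in each direction. On the implied total the first 3 stood at 0.36, −0.0022 and −0.42, so the direction of miR-126a-3p and miR-221-3p depended on the scale. The median log2 difference of the 13 after TMM was 0.083. The summed platelet level ran from 96175 to 162305 CPM on the normal diet and from 126177 to 174930 on fish oil. Summed levels of lists, here and below, are CPM without TMM scaling, so they are on another scale than the log2 differences. MiR-126a-3p and miR-199a-3p are also known from endothelial and mesenchymal cells, and miR-223-3p from neutrophils. MiR-142-3p, listed for platelets and leukocytes, was at 0 in 15 libraries. Mean counts per library were low for miR-126a-3p (11.3) and miR-185-5p (16.4).

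Of 8 tested erythrocyte miRNAs 2 were higher, miR-144-5p (1.32) and miR-144-3p (0.98), and 2 were lower, miR-92a-3p (−1.09) and miR-363-3p (−1.09), by edgeR averaged over exposures, again near the share over all 136. MiR-144 shares a transcript with miR-451, the most specific red cell miRNA, which did not pass. On the implied total miR-144-5p stood at 0.57 and miR-144-3p at 0.081. Mean counts per library were low for miR-144-5p (10.3), miR-144-3p (11.3) and miR-363-3p (14.3), against 838 for miR-92a-3p. The list's median after TMM was 0.14, and the summed level ran from 37380 to 73968 CPM on the normal diet and from 34179 to 73509 on fish oil. An erythrocyte index, log2 of miR-451-5p over miR-23a-3p, ran from −4.53 to −1.42 on the normal diet and from −3.79 to −0.58 on fish oil. With that index in the fit the averaged fish oil difference was −1.49 (SE 0.23) for miR-191a-5p and −0.79 (SE 0.18) for miR-425-5p. Without it the values were −1.54 and −0.74. The index rests on miR-451-5p, at a mean of 29.4 counts per library, and the part of red cells in these differences was not tested.

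Of 7 tested leukocyte miRNAs miR-181a-5p was higher (0.51, but −0.39 on the implied total) and miR-223-3p lower (−0.80), with a median of 0.23 and summed levels of 10689 to 23225 CPM on the normal diet and 12955 to 28160 on fish oil. Of 4 liver miRNAs 1 was lower averaged over exposures, miR-192-5p (−0.62), and in air 2 were lower, miR-122-5p (−2.06, edgeR adjusted p = 0.0472) and miR-192-5p (−1.08, adjusted p = 0.0120), where 5.15% of all tested miRNAs were called lower. In ozone 0 of the 4 passed by edgeR, DESeq2 or voom, and 0 had an unadjusted edgeR p under 0.05. Limma on RPM called 2 of the 4 in ozone, where it called 48 of all 136 tested miRNAs lower. The liver median in ozone was −0.070 after TMM, with miR-122-5p at 0.012 and miR-192-5p at −0.15. The liver sum ran from 55295 to 183011 CPM on the normal diet and from 36708 to 126535 on fish oil, with a median difference of −0.50 averaged over exposures. Of 3 tested muscle or brain miRNAs 0 passed by edgeR, DESeq2 or voom and 0 had an unadjusted p under 0.05 (median 0.25). Their sum ran from 44.1 to 3367 CPM and 642 to 4511 CPM, and miR-208a-3p of heart and miR-124-3p of neurons were at 0 in all 23 libraries. The part of these cell sources in the members' differences was not tested. In serum, fewer releasing cells and less miRNA released per cell cannot be told apart.

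In the ozone contrasts 0 of the 38 tested miRNAs on these 6 lists passed the edgeR test on either diet, with 1 on the normal diet and 3 on fish oil at an unadjusted p under 0.05; DESeq2 called 1 and 0, and voom 0. Animal numbers run in a separate block for each group, so a handling batch that followed those blocks cannot be told apart from diet or exposure. The p-values of group differences weigh them against the spread between rats treated as independent, though rats shared cages that are not named.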

How the data were processed

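The authors deposited expected counts, estimated reads per mature miRNA locus with fractions at 42 of 832 loci, and RPM, reads per 1e6 of an unstated read total plus 0.0001. The tools were Bowtie 1.0.0, bcl2fastq and Partek on rn5, per the submitters' processing notes; filters and the treatment of shared reads were not given in the sources used here. Per the labels' protocols, RNA from 100 µl of serum entered the libraries at 10 ng, and reads had 50 cycles. Libraries were joined to groups through the animal number in title and column name.

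Loci of 1 name were summed and rounded (753 names, 440 with a count). The read total implied by both tables lay between 2243918 and 7729944 per library and matched RPM within 0.0255 reads. Counts were filtered (filterByExpr by group, minimum count 10, minimum total 15), scaled by TMM and tested two-sided in R 4.3.3 with the robust quasi-likelihood fit of edgeR 4.0.16, which had 1 mean for each group. Benjamini-Hochberg adjustment ran over 136 miRNAs, with a threshold of 0.05. Correlations used 100000 resamples and the ratio a pseudocount of 0.5 (scipy 1.17.1). Alternatives were DESeq2 1.42.0, limma 3.58.1 on log2(RPM + 1), voom, other library sizes, no filter, an erythrocyte covariate and leaving out each library; the code was tested on simulated data.

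The members and lists were chosen with earlier results of these data known. Named are both members, the 5 miRNAs most correlated with each, the other arms, seed and locus neighbours, list members that passed a fish oil test and those needed to read a list. Of the 753 names 688 matched the RefSeq miRNA table.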

Additional observations from a re-analysis of the deposited data

How the results depend on the processing

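No paired analysis was possible because animal numbers run in separate blocks per group and pair no rats. Apart from settings that leave out a library, 168 recomputed values kept their direction and side of the threshold, or for described values and counts stayed within 1 SD or 1.5 times, 14 changed sign, 31 moved and 1 passed the threshold anew; the cause was not tested.

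Both members were lower on fish oil under each setting. On the implied read total the log2 differences averaged, in air and in ozone were −2.38, −2.07 and −2.70 for miR-191a-5p and −1.65, −1.64 and −1.66 for miR-425-5p, and by limma on log2(RPM + 1) they were −2.49, −2.17 and −2.82, and −1.56, −1.58 and −1.54. The ozone difference on the normal diet changed sign for miR-191a-5p with total count scaling (0.038), the implied total (0.26), library sizes without both members (0.047) and RPM (0.24), and for miR-425-5p with the implied total (0.11) and RPM (0.029). For miR-425-5p it changed sign on fish oil with the implied total (0.092), RPM (0.066) and the erythrocyte index (0.022), and averaged over diets with the implied total (0.10) and RPM (0.048). Its interaction changed sign with total count scaling (−0.027), the implied total (−0.018) and library sizes without both members (−0.082). The correlation of the members was 0.739 on the implied total.

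Leaving out each library in turn, the ozone difference of miR-191a-5p on the normal diet ran from −0.19 to 0.11 and that of miR-425-5p on fish oil from −0.18 to 0.095 (log2). For miR-191a-5p the ozone difference on fish oil ran from −0.78 (without fish oil ozone replicate 6) to −0.32 (without fish oil ozone replicate 3) and the interaction from −0.71 to −0.25, and the interaction of miR-425-5p ran from 0.059 to 0.37. The correlation ran from 0.230 to 0.565, with an unadjusted permutation p of 0.022 without fish oil ozone replicate 5 and 0.0468 without fish oil ozone replicate 6. The averaged fish oil difference ran from −1.71 to −1.45 for miR-191a-5p and from −0.85 to −0.69 for miR-425-5p. The ozone difference in log2 ratio ran from 0.12 to 0.36 on the normal diet and from −0.72 to −0.24 on fish oil.

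The 8 calls for fish oil in air became 15 with DESeq2, 14 with total count scaling, 38 on the implied total, 5 with library sizes without both members, 15 without the 5 most abundant miRNAs, 32 with RPM and 5 with voom. They numbered 4 without normal air replicate 5, 5 without normal air replicate 6, 15 without fish oil air replicate 3, 3 without fish oil air replicate 4 or 5, and 4 without fish oil air replicate 6. The 31 calls in ozone became 48 with RPM and 12 without fish oil ozone replicate 3. The 1 call for ozone averaged over diets became 0 in 7 of the other settings and without any of 18 single libraries, and ozone on the normal diet had 1 call with DESeq2 and without normal air replicate 3. Counts of 32 to 285 limit the precision of miR-425-5p, as do 0 to 11 counts per library for the opposite arms.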
